A study of Mus musculus with 16 samples.

Results

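The 8 genes Il33, Il1rl1, Il4ra, Il13ra1, Siglecf, Rnase2a, Itln1 and Retnla stand for type 2 immunity, eosinophils and alternatively activated macrophages in the mouse stomach. They were taken by symbol from a table of 24964 gene symbols, of which 15385 passed the filter on low counts, and 8 of the 8 genes passed. Rnase2a and Itln1 were chosen because their values were high in the TTP-A libraries, so they are described without a test wherever a TTP group enters. The other 6 were named for their place in the pathway. RNA was sequenced from 16 stomach libraries, 4 in each of 4 groups, all from female mice aged 8 weeks. WT-S and WT-A came from wild-type C57BL/6 mice, and TTP-S and TTP-A from congenic C57BL/6 mice that carry the TTPΔARE allele. Tristetraprolin (TTP), encoded by Zfp36, binds AU-rich elements of transcripts and speeds their decay, and the allele lacks such an element in the Zfp36 transcript itself. Condition A was removal of the adrenal glands (adrenalectomy), which the labels tie to inflammation of the stomach. For condition S the treatment label names SPEM, spasmolytic polypeptide-expressing metaplasia, and what the letter stands for is not given in the sources used here. Each biopsy, 4 mm wide, was taken at the lesser curvature of the corpus and holds many cell types. In such bulk RNA, fewer cells of a type and less RNA per cell cannot be told apart.

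In type 2 immunity, IL-33 released by epithelial and stromal cells acts through the receptor ST2, the product of Il1rl1, on mast cells, innate lymphoid cells and T helper cells. These cells secrete IL-4, IL-5 and IL-13. IL-4 and IL-13 signal through receptors that share the chain encoded by Il4ra, which pairs with the Il13ra1 product in one receptor type, and STAT6 then drives genes such as Retnla in macrophages. IL-5 and the eotaxins support and attract eosinophils, whose surface carries Siglec-F (Siglecf) and whose granules hold ribonucleases such as the product of Rnase2a. Itln1 encodes intelectin-1, a lectin that binds microbial sugars and is made by secretory cells of the gut. In the stomach, IL-33 and IL-13 are known for a part in metaplasia of the corpus glands.

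Sequences near these genes are shown first, because STAT6 and TTP act through short motifs. In promoter windows from RefSeq (GRCm38.p6), which run from 250 bases before to 50 after a gene's start, 8 of the 8 genes had an entry. The STAT6-type motif TTCNNNNGAA, which reads the same on both strands, lay in the window of Retnla, in that of the first of the 2 starts listed for Il33 (the other had no match) and in 6.95% of 32851 windows of the same length in all. The motif is in capitals in the following 100 bases of each gene, on the plus strand, at chr16:48842424-48842523 for Retnla and chr19:29925013-29925112 for Il33.
Retnla: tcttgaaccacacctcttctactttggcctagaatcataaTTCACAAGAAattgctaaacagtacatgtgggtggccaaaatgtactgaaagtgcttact
Il33: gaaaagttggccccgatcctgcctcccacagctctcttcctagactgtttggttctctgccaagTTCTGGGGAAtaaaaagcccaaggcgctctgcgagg
The match began 145 bases before the RefSeq start of Retnla and 36 bases before that first RefSeq start of Il33. Gene coordinates given below are from GENCODE, whose start for Retnla differs from that of RefSeq. Retnla and Il33 were higher in TTP-A than in TTP-S without overlap, but so were Il1rl1 and Siglecf, whose windows held no STAT6-type match. For Retnla and Il33, WT-A against WT-S gave estimates of opposite sign, as given below. Whether the motif bears on expression was not tested. Of the other motifs searched, a Gata-type motif lay in 2 of the 10 windows of the 8 genes, those of Il1rl1. A shorter STAT-type motif and the glucocorticoid response element lay in 0 of the 10.

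AU-rich elements of the kind that TTP binds were searched as TATTTAT in the longest GENCODE 3′ UTR of each gene, on the transcript strand. The motif was found in 29.6% of 14473 tested genes with such a UTR. Of the 8 genes, Il1rl1 alone had it, at 2 sites, 261 and 3124 bases after the stop codon, while the shorter pentamer ATTTA occurred in 6 of the 8, against 69.2% of all genes, and was absent from Il4ra and Itln1. Of the cytokine genes described below, Il13 had 1 TATTTAT site, shown here, and Il5 had 3. The heptamer is in capitals in these stretches of 29 bases.
Il1rl1 first site: attgattatctTATTTATctacctttcaa
Il1rl1 second site: tatgcctttccTATTTATtattgtatgac
Il13 site: cttcttgatctTATTTATtatggttgtgt

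Library totals ran from 17453930 to 25849472 counts, with 17607 to 18377 genes detected. Zfp36 itself stood at 110.5 to 131 CPM (read counts relative to the library total, scaled with TMM factors) in the 8 TTP libraries and at 55.1 to 88.6 CPM in the 8 WT libraries, without overlap. WT-A 3 and WT-A 4 stood apart: their deviation from other libraries followed transcript GC content (Spearman rho 0.716 and 0.738, against -0.302 to 0.164 elsewhere). Results were therefore also computed in the other 14 libraries. Acid pump, pepsinogen and mucin genes of the corpus were abundant in every library, at a sum of 151882 to 230880 CPM in WT-S, 101674 to 178716 in WT-A, 203709 to 210869 in TTP-S and 142746 to 203865 in TTP-A. In WT-A, 3 of 11 of them fell (Pgc, Gif and Chia1), against 8.99% of all genes, and 7 of 11 fell without WT-A 3 and WT-A 4, against 10.4% called in either direction. Genes of the squamous forestomach varied widely, at 3.99 to 332, 57.3 to 1957, 35.8 to 913 and 5.91 to 480.2 CPM in the same order of groups, and Krt6a and Krt6b of 11 tested were called higher in WT-A, against 9.8% of all genes. Adipocyte genes summed to 477 to 607, 382 to 489, 637 to 812 and 414 to 564 CPM, without overlap between TTP-S and TTP-A, where Cfd, Plin4 and Fabp4 of 9 tested fell, against 1.35% of all genes. Smooth muscle genes summed to 7065 to 8026, 8308 to 10065, 6161 to 8629 and 6709 to 8040 CPM, without overlap between WT-S and WT-A. Of these 8 genes, 5 rose in WT-A, against 9.8% of all genes, and 4 were lower in TTP-A when set against WT-A (5.17% of all genes called). Without WT-A 3 and WT-A 4 the edgeR counts were 1 and 0 (3 and 4 at an unadjusted p under 0.05). In those 14 libraries 10.4% and 1.87% of all genes were called. The part of these other tissues in the results below was not tested. WT-S 1 had the highest value of its group in 8 of the 8 genes, TTP-S 3 had the highest in 6, and WT-S 2, WT-A 4 and TTP-A 2 each had the lowest in 6.

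**Figure D1:**
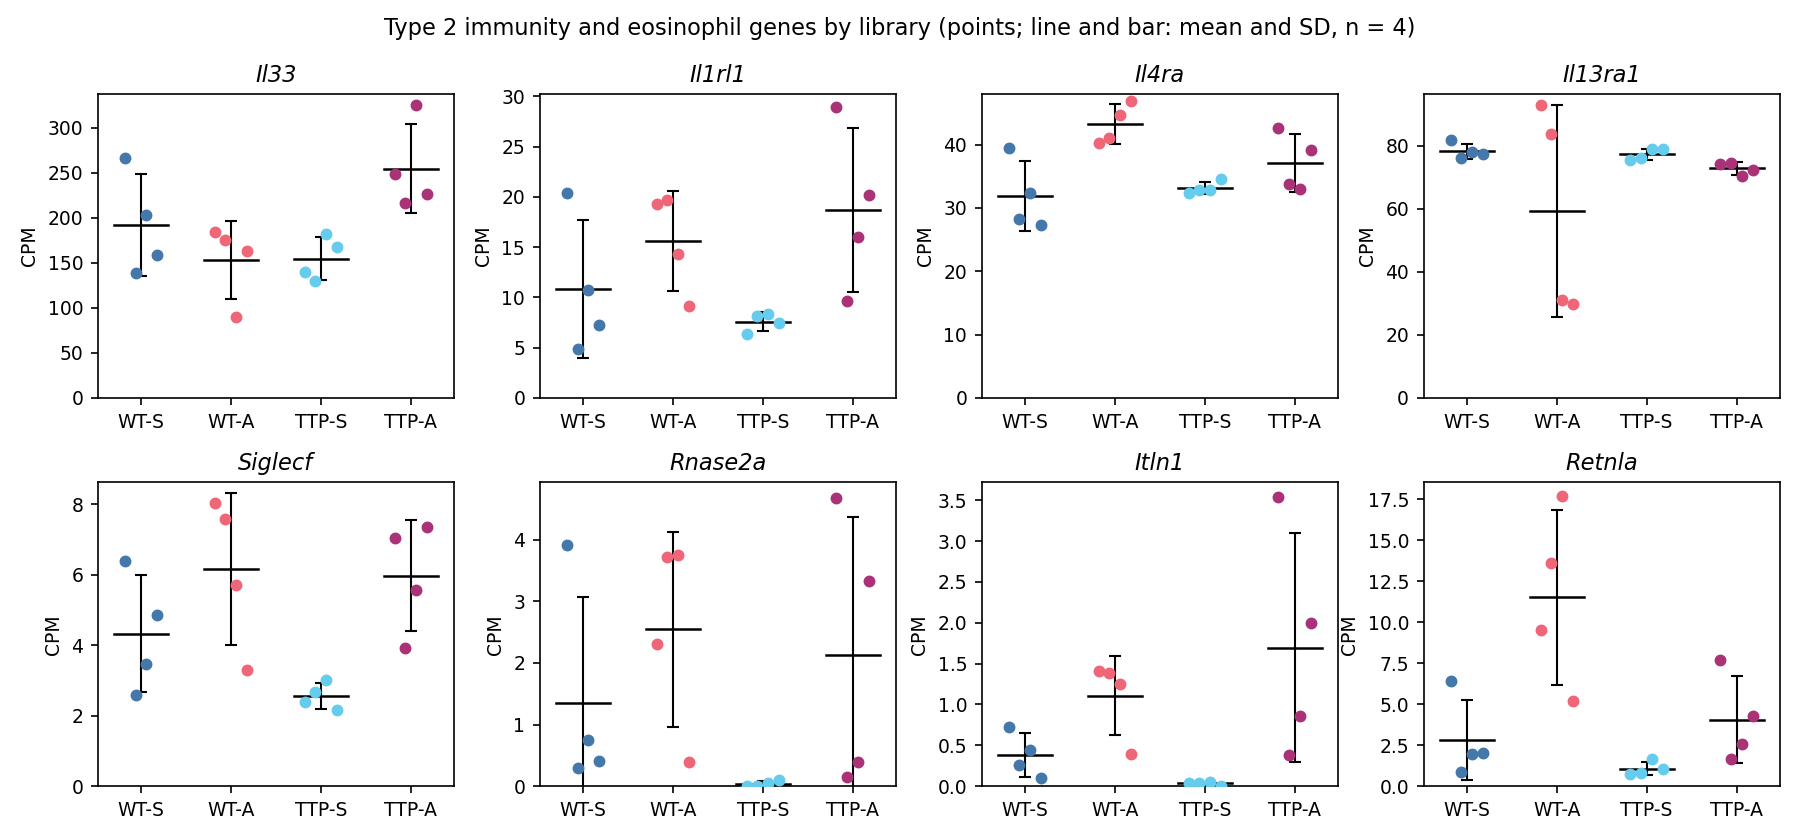
CPM of the 8 genes in each library, by group; points are libraries, and lines with bars are means with SD (n = 4). The TTP-S libraries lie close together for most genes, Rnase2a spans 0.14 to 4.68 CPM in TTP-A, and Il13ra1 falls to 31.2 and 29.7 CPM in WT-A 3 and WT-A 4.

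Il33 (chromosome 19, 29925114 to 29960718, plus strand, GRCm38) encodes the alarmin cytokine at the head of the pathway. In WT-S, Il33 stood at 266, 139, 204 and 159 CPM in libraries 1 to 4. In WT-A, Il33 stood at 184, 176, 89.8 and 163 CPM, with library 3 the lowest and the group within or below the WT-S range. The TTP-S values were 139, 130.1, 182 and 168 CPM, and those of TTP-A were 249, 217, 326 and 226 CPM. Each TTP-A library was above every TTP-S and every WT-A library, and only WT-S 1 reached into the TTP-A range. The log2 difference of TTP-A against TTP-S was 0.72 (SE 0.22), with an adjusted p of 0.0960 by edgeR's quasi-likelihood test, and so was not called at the threshold of 0.05. In the 14 libraries the same difference had an adjusted p of 0.0315, and without WT-A 3 alone it had 0.0472. WT-A against WT-S gave -0.32 (SE 0.22, adjusted p = 0.301). TTP-A against WT-A gave 0.73 (SE 0.22, adjusted p = 0.0626), which became 0.50 (adjusted p = 0.235) without the libraries set apart by GC content, while leaving out WT-S 1, WT-A 1 or WT-A 2 gave adjusted p of 0.0486, 0.0280 and 0.0495. TTP-S against WT-S differed by -0.31 (adjusted p = 0.873). Without WT-S 1 these S-group comparisons shrank, to -0.12 for WT-A against WT-S and -0.11 for TTP-S against WT-S. The Il33 transcript has a GC content of 42.5%, at percentile 13.6 of the genes tested, whose median is 50%. The difference between genotypes in the response to A, the interaction, was 1.04 (SE 0.31, adjusted p = 0.172).

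Il1rl1 (chromosome 1, 40429570 to 40465415, plus strand) encodes the IL-33 receptor ST2. In WT-S, Il1rl1 stood at 20.4, 4.83, 10.7 and 7.27 CPM, with library 1 apart at the top. In WT-A, Il1rl1 stood at 19.3, 19.7, 14.3 and 9.13 CPM, overlapping WT-S. TTP-S was low and even at 6.32, 8.19, 8.35 and 7.47 CPM, and TTP-A ranged widely above it at 29.0, 9.61, 15.99 and 20.2 CPM. TTP-A exceeded TTP-S by 1.30 on the log2 scale (SE 0.39, adjusted p = 0.0827), not called in the 16 libraries and just called in the 14 (adjusted p = 0.0499), without WT-S 1 (0.0332) and without TTP-A 2 (0.0267). The WT difference was 0.54 (SE 0.38, adjusted p = 0.305). Without WT-S 1, the WT difference was 1.04 with an adjusted p of 0.0479, so that library decided the call. Between genotypes, Il1rl1 differed by -0.50 in S (adjusted p = 0.896), which became -0.0040 without WT-S 1, and by 0.26 in A (adjusted p = 0.670), which turned to -0.057 in the 14 libraries.

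Il4ra (chromosome 7, 125552120 to 125579474, plus strand) encodes the chain common to the IL-4 and IL-13 receptors. In WT-S, Il4ra stood at 39.5, 28.3, 32.3 and 27.3 CPM. In WT-A, Il4ra stood at 40.2, 41.1, 44.6 and 47.0 CPM, each above every WT-S library. Il4ra rose in WT-A by 0.44 on the log2 scale (SE 0.11, adjusted p = 0.0123). The rise was 0.35 with an adjusted p of 0.0804 in the 14 libraries, so the call was lost without WT-A 3 and WT-A 4, the highest of the group. The Il4ra transcript has the highest GC content of the 8, 55.8%, at percentile 80.9. TTP-S was at 32.3, 32.9, 32.9 and 34.5 CPM and TTP-A at 42.6, 33.7, 32.9 and 39.2 CPM, so that libraries 2 and 3 of TTP-A lay within the TTP-S range. Their difference was 0.16 (adjusted p = 0.529), and the interaction was -0.28 (SE 0.15, adjusted p = 0.373). TTP-A against WT-A was -0.22 (adjusted p = 0.188).

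Il13ra1 (chromosome X, 36112110 to 36171259, plus strand) encodes the partner chain for IL-13. In WT-S, Il13ra1 stood at 81.7, 76.2, 78.0 and 77.4 CPM, a narrow spread. In WT-A, Il13ra1 stood at 92.9 and 83.9 CPM in libraries 1 and 2 and at 31.2 and 29.7 CPM in libraries 3 and 4. The WT-A group is thus split, with a pair above every WT-S library and a pair below. The WT difference was -0.40 (SE 0.27, adjusted p = 0.297) over 16 libraries and turned to 0.17 (adjusted p = 0.0407) in the 14. Without WT-A 1 it was -0.69 (adjusted p = 0.0460), so both directions can be called by the choice of libraries. This transcript has the lowest GC content of the 8, 41.2%, at percentile 8.92, and WT-A 3 and WT-A 4 are the libraries that follow GC content. TTP-S was at 75.5, 76.1, 78.9 and 78.8 CPM and TTP-A at 74.3, 74.5, 70.3 and 72.4 CPM. TTP-A lay below TTP-S without overlap but by -0.09 on the log2 scale only (adjusted p = 0.943). TTP-A against WT-A was 0.29 (adjusted p = 0.490) and turned to -0.28 (adjusted p = 0.0166) in the 14 libraries.

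Siglecf (chromosome 7, 43351341 to 43359531, plus strand) encodes the sialic acid binding receptor that marks mouse eosinophils. In WT-S, Siglecf stood at 6.38, 2.59, 3.48 and 4.86 CPM. In WT-A, Siglecf stood at 8.05, 7.59, 5.70 and 3.30 CPM, overlapping WT-S through libraries 3 and 4. TTP-S was low and even at 2.39, 2.68, 3.01 and 2.16 CPM, and TTP-A stood wholly above it at 7.04, 3.91, 5.57 and 7.36 CPM. Siglecf rose in TTP-A against TTP-S by 1.22 on the log2 scale (SE 0.30, adjusted p = 0.0417; 0.0145 in the 14 libraries). Leaving out a library of either TTP group ended this call in 7 of 8 cases, with adjusted p up to 0.150 without TTP-A 1, and leaving out WT-S 3 or WT-S 4 ended it as well, at 0.0546 and 0.0536. In WT the difference was 0.53 (SE 0.29, adjusted p = 0.195; 0.87 and 0.0622 in the 14 libraries). The test of the difference between these responses gave 0.70 (adjusted p = 0.416), so a larger response in TTP mice was not shown. Between genotypes the difference was -0.74 in S (adjusted p = 0.570) and -0.05 in A (adjusted p = 0.921).

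Rnase2a (chromosome 14, 51255262 to 51256112, minus strand) encodes an eosinophil-associated ribonuclease. Its counts in WT-S were 70, 7, 17 and 8, and in WT-A 64, 108, 96 and 9. In TTP-S they were 0, 0, 1 and 2, and in TTP-A 103, 3, 8 and 72. As CPM these are 3.92, 0.30, 0.75 and 0.41 in WT-S, 2.31, 3.73, 3.75 and 0.39 in WT-A, at most 0.10 in TTP-S, and 4.68, 0.14, 0.38 and 3.33 in TTP-A. TTP-S lay below every library of the other groups, and the other groups each had a library at or under 0.39 CPM. The TTP-A to TTP-S ratio of summed counts, scaled by library size, was 65.2 (95% interval 22 to 319), from 186 counts against 3. That of TTP-S to WT-S was 0.0275 (0.00558 to 0.0826), from 3 counts against 102, of which WT-S 1 held 70. These intervals cover counting error only, and both ratios are descriptions, as the gene was chosen for its TTP-A values. WT-A against WT-S, which the choice did not use, differed by 0.97 (SE 0.89, adjusted p = 0.443), and by 2.38 without WT-S 1, still not called (adjusted p = 0.0896).

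Other genes of eosinophils were scarce. Of the 15 genes on the eosinophil list, Epx, Prg3, Ear1, Ear6 and Ear14 were at 0 in all 16 libraries, among them eosinophil peroxidase (Epx). Prg2, the major basic protein, reached at most 4 counts, and the eotaxin receptor Ccr3 at most 30 counts, in WT-A 2. The list summed to 3.99 to 12.3 CPM in WT-S, 6.26 to 24.7 in WT-A, 3.05 to 4.00 in TTP-S and 5.6 to 19.2 in TTP-A. Most of that sum was Siglecf, Rnase2a (chosen for its TTP-A values) and Alox15: the other 12 genes summed to 0.20 to 0.55, 0.26 to 2.14, 0.05 to 0.21 and 0.34 to 0.74 CPM, with the groups in the same order. Alox15, a lipoxygenase of eosinophils and alternatively activated macrophages, rose in both genotypes, by 2.69 in WT (adjusted p = 0.00406) and 2.57 in TTP mice (adjusted p = 0.0230).

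Itln1 (chromosome 1, 171518122 to 171535294, minus strand) encodes intelectin-1, and 1.01% of its 50-base stretches are shared with Gm9765. Its counts were 13, 6, 10 and 2 in WT-S, 39, 40, 32 and 9 in WT-A, 1, 1, 1 and 0 in TTP-S and 78, 8, 18 and 43 in TTP-A. As with Rnase2a, TTP-S was below every library of the other groups. In TTP-A, Itln1 stood at 3.54, 0.39, 0.86 and 1.99 CPM, with library 2 the lowest. The scaled ratio of TTP-A to TTP-S was 51.5 (17.3 to 253; 147 against 3 counts), again a description with an interval for counting error only. The TTP-A and WT-A libraries overlap. WT-A against WT-S, at 1.41, 1.38, 1.25 and 0.39 against 0.73, 0.25, 0.44 and 0.10 CPM, differed by 1.56 (SE 0.63, adjusted p = 0.0887) and was not called. Itln1 is also made by intestinal Paneth and goblet cells, whose list, Itln1 included, summed to 61.0 to 496 CPM in WT-S, 329 to 1400 in WT-A, 41.6 to 155 in TTP-S and 222 to 634 in TTP-A. Clca1, described below, made up most of that sum, and the 8 genes other than Clca1 and Itln1 summed to 2.92 to 4.03, 2.74 to 8.62, 6.20 to 19.6 and 3.70 to 16.9 CPM. In TTP-A against TTP-S, 1 of 4 tested genes of the list besides Itln1 was above 0 and called, Clca1, against 1.55% of all genes called higher, with a median of -0.44. On that list Defa24, Defa30 and Mptx2, which define Paneth cells, were at 0 in all libraries. Genes of the mesothelium and omentum, where Itln1 is also known, summed to 69.3 to 81.1, 34.6 to 80.7, 72.7 to 76.7 and 76.7 to 84.6 CPM, with the groups ordered as before. Of the 6 of them tested in WT-A against WT-S, Itln1 included, Lrrn4 and Upk3b were called higher, against 9.8% of all genes (median 1.07, 5 of 6 above 0), and Lrrn4 alone in the 14 libraries (median 1.53). In TTP-A against TTP-S edgeR called 0 of 5 besides Itln1 (0 at an unadjusted p under 0.05, 0 by DESeq2; median -0.0023), against 2.9% of all genes. The part of such tissue in the Itln1 values was not tested.

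Retnla (chromosome 16, 48842551 to 48844461, plus strand) encodes RELMα, a secreted protein of alternatively activated macrophages. In WT-S, Retnla stood at 6.44, 0.89, 1.94 and 2.0 CPM. In WT-A, Retnla stood at 9.53, 13.6, 17.7 and 5.22 CPM, and only WT-S 1 reached above the lowest of them. TTP-S had 0.77, 0.78, 1.63 and 1.03 CPM, and TTP-A had 7.72, 1.64, 2.59 and 4.31 CPM, just clear of TTP-S. Retnla rose in WT-A by 2.07 on the log2 scale (SE 0.54, adjusted p = 0.0175; 0.0346 in the 14 libraries). The call was lost on leaving out WT-S 2, WT-S 3, WT-S 4 or WT-A 3, with adjusted p of 0.0570, 0.0509, 0.0532 and 0.0602. Without WT-S 1 the rise was larger, at 2.85 (edgeR adjusted p = 0.00330). In TTP mice the difference was 1.97 (SE 0.60, adjusted p = 0.0933), not called, with 0.0411 without WT-S 1 and 0.0395 without TTP-A 2. TTP-S against WT-S was -1.40 (adjusted p = 0.628), and -0.62 without WT-S 1, and TTP-A against WT-A was -1.50 (adjusted p = 0.0894). The interaction was -0.10 (SE 0.84, adjusted p = 0.961).

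**Figure D2:**
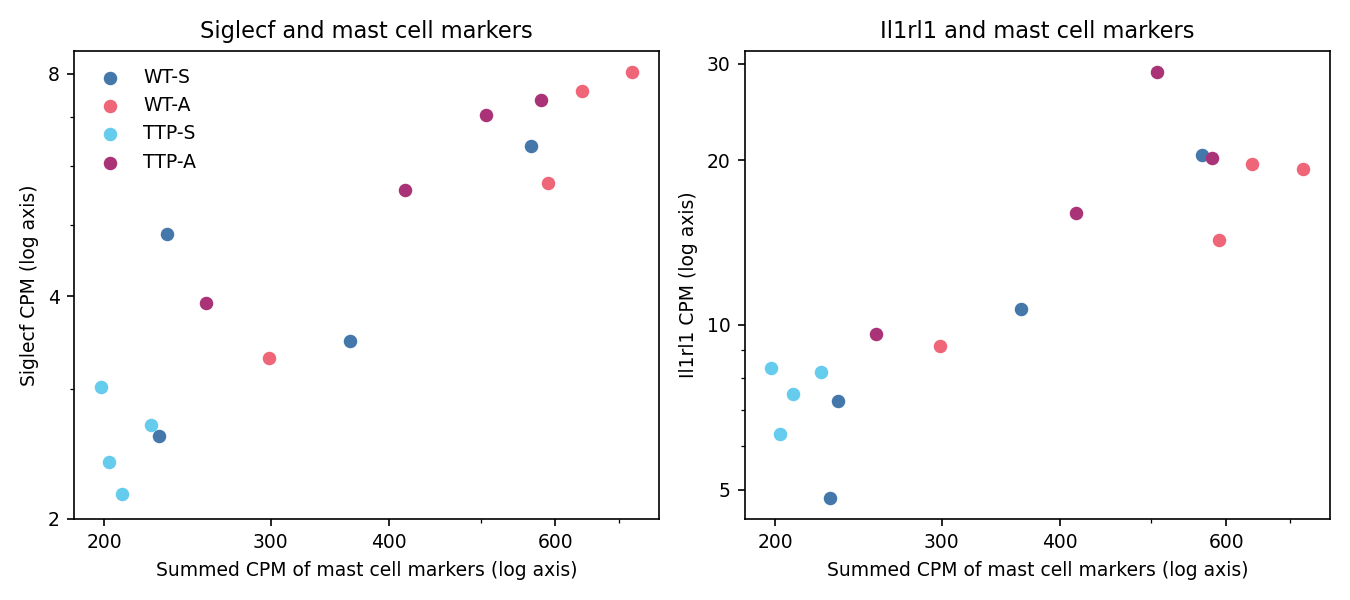
Siglecf CPM (left) and Il1rl1 CPM (right) against the summed CPM of 11 mast cell markers, on log axes, 1 point per library. The TTP-S libraries lie at the low end for mast cell markers, at 198 to 224 CPM, and WT-A 1 has the most, at 724 CPM.

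Mast cell genes are given beside the 8, because ST2 is carried by mast cells. Across the 16 libraries Il1rl1, Siglecf, Rnase2a, Itln1 and Retnla were correlated with each other at r of 0.799 to 0.897 (log2 CPM), as a description over libraries that share group and depth. The 11 mast cell genes summed to 566, 228, 364 and 233 CPM in WT-S and to 724, 639, 589 and 298 CPM in WT-A. TTP-S was even at 202, 224, 198 and 209 CPM, and TTP-A had 506, 256, 416 and 579 CPM. As for Il1rl1, WT-S 1 was the highest of its group, and WT-A 4 and TTP-A 2 were the lowest of theirs, but in TTP-A library 4 had the most mast cell RNA and library 1 the most Il1rl1. The log2 mast cell sum correlated with these 5 genes at r of 0.89 to 0.926 over the 16 libraries, a description with the same limits, in which Rnase2a and Itln1 were chosen for TTP-A values that enter it, and at 0.679 with Il4ra, 0.272 with Il33 and -0.0671 with Il13ra1. Without WT-A 3 and WT-A 4 the last 3 values were 0.795, 0.576 and 0.376, so those for Il33 and Il13ra1 depend on that pair. Kit and Hdc are known from other stomach cells as well, and the other 9 genes summed to 64.3 to 426 CPM in WT-S, 170.0 to 613 in WT-A, 61.5 to 70.8 in TTP-S and 118 to 453 in TTP-A. Cma1, Mcpt1 and Mcpt2, proteases of mast cells, rose in TTP-A against TTP-S, 3 of 11 tested, against 1.55% of all genes called higher (median log2 difference 1.29, against -0.0010 over all genes). Mcpt1 rose by 3.71 (adjusted p = 0.0182) and Mcpt2 by 2.58 (adjusted p = 0.0279). In WT, Mcpt4 rose and Hdc, the histidine decarboxylase also found in enterochromaffin-like cells, fell, and the other 9 of 11 were not called (median 0.34); over all genes 18.8% were called. TTP-S against WT-S had a median of -1.04 over the 11, with 0 called by edgeR (0.0325% of all genes), 5 at an unadjusted p under 0.05 and 2 called by DESeq2. Over all genes DESeq2 called 100 there, where edgeR called 5. No mast cell gene was at 0 in all libraries, and the part of these cells in the 5 genes' values was not tested.

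The comparisons of the 6 genes chosen by pathway differed in how many were called. In WT-A against WT-S, 2 of 6 were called (Il4ra and Retnla, both higher), against 18.8% of all genes tested (9.8% higher and 8.99% lower). In that comparison 1 of 6 did not overlap (Il4ra), against 17.7% of all genes. In TTP-A against TTP-S, 1 of 6 was called (Siglecf, higher), against 2.9% of all genes (1.55% higher and 1.35% lower). DESeq2 called 4 of 6 there (Il33, Il1rl1, Siglecf and Retnla), and 863 of all genes, where edgeR called 446. The groups did not overlap for 5 of 6, Il33, Il1rl1, Siglecf and Retnla higher and Il13ra1 lower, against 13.7% of all genes.

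Between genotypes, edgeR called 0 of 6 in S, against 0.0325% of all genes, with 2 at an unadjusted p under 0.05 (Retnla and Siglecf, both lower in TTP-S). DESeq2 called 0 of 6 there, and 100 of all genes, where edgeR called 5. None of the 6 separated these groups, against 6.74% of all genes. In A edgeR called 0 of 6, against 5.17% of all genes, with 2 at an unadjusted p under 0.05 (Il33 and Retnla). DESeq2 called 1 of 6 there, Il33, and 1636 of all genes, where edgeR called 796. Il33 was also the 1 gene of 6 without overlap there, against 12.2% of all genes. For the interaction edgeR called 0 of 6, against 0.0585%, with 1 at an unadjusted p under 0.05, Il33. DESeq2 called 1 of 6, also Il33, and 262 of all genes, where edgeR called 9. In the 14 libraries, 2 of 6 were called in WT-A against WT-S, where Il13ra1 took the place of Il4ra (10.4% of all genes), and 3 of 6 in TTP-A against TTP-S (Il33, Il1rl1 and Siglecf; 6.26% of all genes). TTP-A against WT-A then had 1 of 6 called, Il13ra1 (1.87% of all genes). For the 6 genes the differences of WT-A and TTP-A from their own S groups were -0.32 and 0.72 for Il33, 0.54 and 1.30 for Il1rl1, 0.44 and 0.16 for Il4ra, and -0.40 and -0.09 for Il13ra1. They were 0.53 and 1.22 for Siglecf and 2.07 and 1.97 for Retnla. The order of the genes by the distance between their 2 estimates rests on WT-S 1, without which the interaction was -0.88 for Retnla, 0.84 for Il33 and 0.26 for Il1rl1. For Il33 the 2 estimates had opposite signs, but edgeR called none of the 6 interactions.

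**Figure D3:**
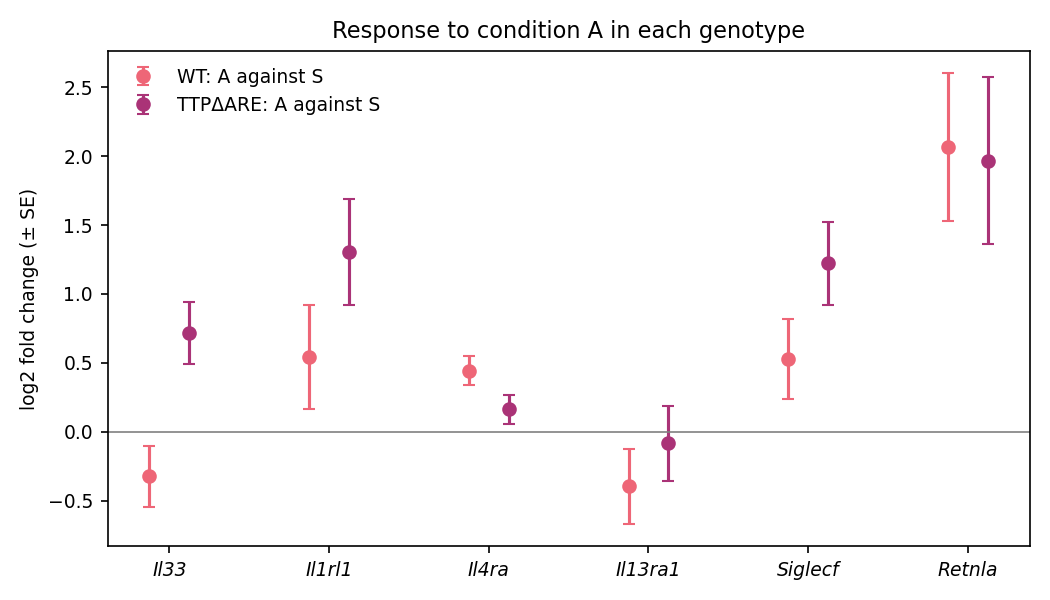
Log2 fold change of A against S in WT and in TTPΔARE mice for the 6 genes chosen by pathway; bars are SE from the edgeR fit. Retnla stands at 2.07 in WT and 1.97 in TTPΔARE mice, Il33 at -0.32 and 0.72, and edgeR called none of the 6 differences between genotypes. DESeq2 called that of Il33, and 262 of all genes, where edgeR called 9.

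Per kilobase of exon, with all annotated exons of a gene merged, Il33 was the most abundant of the 8 in WT-S. It had 66.5 ± 19.6 CPM per kb (SD, n = 4), followed by Il13ra1 with 21.1 ± 0.64. Il4ra (5.30 ± 0.92) and Retnla (4.70 ± 4.12) did not differ beyond their spread. Rnase2a (1.95 ± 2.50), Il1rl1 (1.57 ± 0.99) and Siglecf (1.55 ± 0.59) followed, with overlapping spread, and Itln1 (0.33 ± 0.24) was lowest. The place of Rnase2a in this order rests on WT-S 1, at 5.68 CPM per kb, against 0.43 to 1.08 in the other WT-S libraries. In WT-A, Retnla stood at 8.71 to 29.5 CPM per kb, while Il13ra1 ran from 8.00 to 8.40 in libraries 3 and 4 and was at least 22.6 in libraries 1 and 2. In TTP-A, Il33 was at 88.2 CPM per kb, and in TTP-S, Itln1 and Rnase2a were at 0.03 and 0.05 CPM per kb.

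Among the other genes of the pathway, the ligand Il13 rose in both genotypes. Its counts were 4, 1, 1 and 2 in WT-S, 21, 22, 31 and 19 in WT-A, 1, 3, 3 and 1 in TTP-S and 17, 8, 15 and 8 in TTP-A, so that A and S did not overlap in either genotype. The log2 rise was 3.12 in WT (SE 0.45, adjusted p = 0.00115) and 2.58 in TTP mice (SE 0.47, adjusted p = 0.0128), with an interaction of -0.54 (adjusted p = 0.736). Il5, the eosinophil growth factor, rose in WT by 1.89 (adjusted p = 0.0274; 0.0813 in the 14 libraries) and differed by 1.52 in TTP mice (adjusted p = 0.174). Of the 10 ligands, 4 were tested, 2 were called in WT and 1 in TTP mice, all higher, against 9.8% and 1.55% of all genes. Il13 reached at most 4 counts in any S library and Il5 at most 6, so both passed the filter on low counts through their A values. The share of ligands called is therefore partly set by the filter and is a description only. Il9 and Il3 were at 0 in all libraries, and Il4 reached at most 4 counts.

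Of 28 receptor and signalling genes tested, 10 rose and 1 fell in WT-A (median 0.31, against 0.0094 over all genes), where 9.8% of all genes rose and 8.99% fell. Over the 14 libraries 6 rose, against 10.4% of all genes called in either direction. Besides Il4ra, those that rose in the 16 libraries included Socs1, a feedback inhibitor of cytokine signalling, which rose by 1.07 (adjusted p = 0.0128), and the kinase Jak3, by 0.71 (adjusted p = 0.00150). In TTP-A, 4 of 28 rose, against 1.55% of all genes (median 0.06, against -0.0010 over all genes): Csf2rb2 and Csf2rb, which encode chains of the IL-3 and IL-5 receptor family, Socs1 (1.41, adjusted p = 0.0167) and Il2rg. Stat6 itself differed by 0.12 in WT (adjusted p = 0.0550) and -0.06 in TTP mice (adjusted p = 0.601). Against WT-A, TTP-A had 1 of 28 higher, Rora, and 4 lower, Irak4, Jak3, Cish and Myd88, where 5.17% of all genes were called in either direction. Jak3 was lower by -0.66 (adjusted p = 0.00931). In the 14 libraries Irak4, Jak3 and Il13ra1 were lower and none was higher (1.87% of all genes called).

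Of 5 eosinophil attractants tested, Ccl24 (eotaxin-2) and Ccl8 rose and Cxcl12 fell in WT-A (9.8% of all genes rose and 8.99% fell), and Ccl24 rose in TTP-A (1.55% of all genes rose). In the 14 libraries the calls of Ccl24 and Cxcl12 held in WT, and Ccl8 had 1.36 with an adjusted p of 0.0914. Ccl24 stood at 0.95, 0.08, 0.44 and 0.26 CPM in WT-S and 4.62, 4.10, 8.54 and 2.87 CPM in WT-A. In TTP-S it stood at 0.24, 0.12, 0.10 and 0.15 CPM and in TTP-A at 2.0, 0.34, 1.06 and 1.48 CPM. A and S did not overlap in either genotype, and every TTP-A library was below every WT-A library. The rise was 3.58 in WT (adjusted p = 0.00147) and 2.93 in TTP mice (adjusted p = 0.0294). TTP-A was below WT-A by -2.04 (SE 0.47, adjusted p = 0.0289; 0.0734 in the 14 libraries), while the interaction was -0.65 (adjusted p = 0.761). Ccl11 (eotaxin-1) differed by 0.14 and 0.13 in the 2 genotypes (adjusted p = 0.544 and 0.813).

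On the list of alternative activation, which holds Retnla, 6 of 12 tested genes rose in WT-A (median 1.09, against 0.0094 over all genes, of which 9.8% rose) and 4 in the 14 libraries, where 10.4% of all genes were called. They were Retnla, Alox15, Ccl24, Ccl22, Tgm2 and Mgl2, a lectin of macrophages and dendritic cells that rose by 1.06 (adjusted p = 0.00410). In TTP-A, 4 of 12 rose, against 1.55% of all genes (median 0.95, against -0.0010), namely Mgl2 (1.27, adjusted p = 0.00633), Alox15, Ccl24 and Pdcd1lg2, and the scavenger receptor Cd163 fell by 1.19 (adjusted p = 0.0154). General macrophage genes summed to 168 to 212 CPM in WT-S, 183 to 285 in WT-A, 138 to 195 in TTP-S and 193 to 221 in TTP-A. Of those, 4 of 12 rose in WT-A, against 9.8% of all genes, but 1 of 12 in the 14 libraries (Cd68), where 10.4% of all genes were called. In TTP-A edgeR called 0 of 12, against 2.9% of all genes (2 at an unadjusted p under 0.05, and 0 by DESeq2). The estimates of 12 of 12 were above 0 there, with a median of 0.24, against -0.0010 over all genes.

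Epithelial effectors of IL-13, the list that holds Itln1, had 3 of 9 tested genes higher in WT-A (Chil4, Clca1 and Dmbt1; median 1.42), against 9.8% of all genes. With Itln1 left out, 3 of 8 were higher (Chil4, Clca1 and Spdef) and Muc5ac, the surface mucin, lower in TTP-A (median 1.02), against 1.55% of all genes higher and 1.35% lower. Clca1, a secreted protein of goblet cells, stood at 492, 57.5, 255 and 120.3 CPM in WT-S and 1393, 732, 696 and 326 CPM in WT-A. In TTP-S it stood at 35.4, 72.3, 100.3 and 136 CPM and in TTP-A at 624, 204, 517 and 404 CPM. Its rise was 1.77 in WT (adjusted p = 0.0456) and 2.35 in TTP mice (adjusted p = 0.0484), with WT-S 1 again reaching into the WT-A range. Dmbt1, a mucosal scavenger receptor protein, was the 1 gene of the type 2 lists with an interaction called by edgeR in the 16 libraries, of -2.0 (SE 0.33, adjusted p = 0.0350). It rose by 1.39 in WT (adjusted p = 0.00226) and differed by -0.61 in TTP mice (adjusted p = 0.188). In the 14 libraries edgeR called the interactions of Irak4 (-0.67, adjusted p = 0.0179) and Cxcl12 (0.69, adjusted p = 0.0371) as well, and 46 of all genes. In the 16 libraries DESeq2 called 1 ligand, 2 receptor and signalling genes and 1 attractant, and 262 of all genes. Between TTP-S and WT-S, edgeR called 0 of the 8 tested besides Itln1 (0.0325% of all genes), with 6 at an unadjusted p under 0.05 (median -0.63). DESeq2 called 2 of the 8 there, and 100 of all genes.

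**Figure D4:**
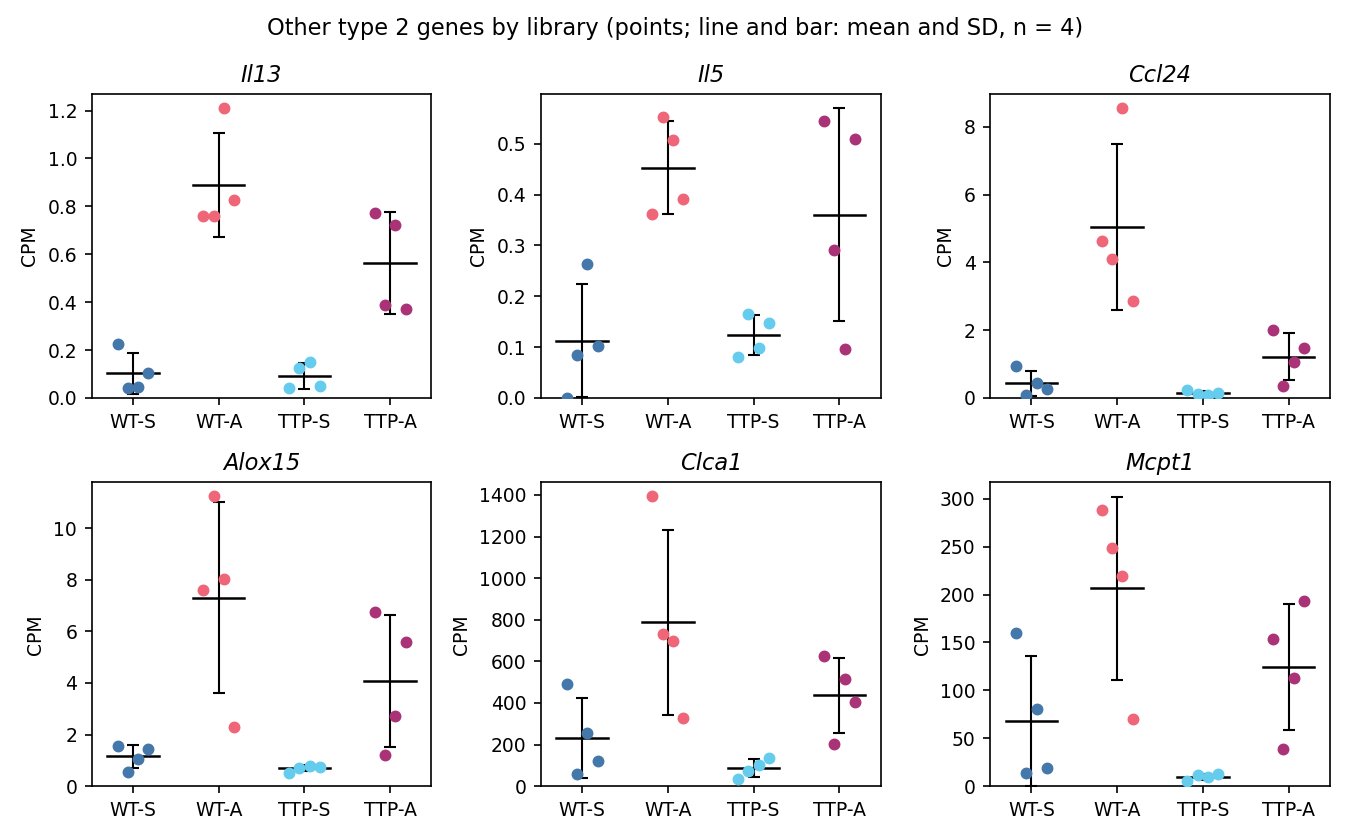
CPM of Il13, Il5, Ccl24, Alox15, Clca1 and Mcpt1 in each library of the 4 groups; points are libraries, and lines with bars are means with SD (n = 4). Il13 and Ccl24 are higher in A than in S in every library of both genotypes, and every TTP-A library has less Ccl24 than any of WT-A.

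The tested genes most like each of the 8 were found by Pearson's r of log2 CPM over the 16 libraries, as a description. Il1rl1 was closest to Enpp3, Emb and Kdelr2 (r = 0.971, 0.958 and 0.958). Siglecf was closest to Sh2d1b1, Sec16b and Prkcb (0.971, 0.949 and 0.946), and Rnase2a to Cd244, Diras2 and Padi2 (0.952, 0.946 and 0.944). Itln1 was closest to Pbld2, Col6a5 and Nuak1 (0.957, 0.956 and 0.954), and Retnla to Rac2, Alox5 and Rflna (0.97, 0.96 and 0.958). Il33 was closest to Nars, Golph3 and Foxp1 (0.853, 0.841 and 0.834), the loosest likeness of the 8, and Il4ra to Capns1, Bdkrb1 and Cant1 (0.937, 0.934 and 0.933). For Il13ra1, the values for Bclaf1, Tm9sf2 and Ppil4 were 0.988, 0.988 and 0.987, and fell to 0.726, 0.65 and 0.723 without WT-A 3 and WT-A 4.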

How the data were processed

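RNA from 16 biopsies was made into Illumina TruSeq libraries, per the labels' protocols. The authors deposited whole-number counts per gene symbol. Per the submitters' processing notes, STAR 2.7.0f, featureCounts, Subread 1.6.4, DESeq2 and the mm10 build were used; the annotation, strand setting and filters are not given in the sources used here. Groups and replicate numbers came from sample titles. The labels do not say that replicates were separate animals, so p-values measure the spread between these samples, which differed by a chi-square of 4.69 to 89.5 per degree of freedom within groups.

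Counts were fitted with edgeR 4.0.16 in R 4.3.3 (TMM, filterByExpr, quasi-likelihood test, 1 mean per group over 16 libraries). P-values were adjusted by Benjamini-Hochberg over the 15385 genes tested, and an adjusted p under 0.05 is a call. Log2 CPM used a prior count of 2. Alternatives were DESeq2 1.42.0, other filters, only the groups compared, the replicate block, 14 libraries and leaving out each library. On simulated data for WT-A against WT-S with 15265 genes, 83.2% of 107 genes changed by 1 on the log2 scale and 91.4% of 93 changed by 2 were recovered. Of the 183 genes called there, 9 were false. The data had 2891 calls, far more than the genes changed in the simulation, so its rates do not give the power for the genes reported here.

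The genes and lists were chosen with earlier results of these data known. A further gene of the set is not reported here, and the counts of genes and lists leave it out. Named were Zfp36, the 8 genes, genes of the lists beside their list's count, and the 3 genes most correlated with each. Rnase2a and Itln1 were also left untested in TTP-S against WT-S, which is stricter than planned. Symbols were matched to GENCODE M21 (GRCm38) for coordinates, length and GC content (24423 matched, 97.8%); promoters are from RefSeq.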

Additional observations from a re-analysis of the deposited data

Results flagged for a closer look

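Of 32 groups of 4 libraries (8 genes in 4 groups), 2 held a library whose gap to its nearest neighbour exceeded the 95% critical value of Dixon's test, taken as a share of the group's range, as chance alone does in about 1 in 20 groups. Rnase2a in WT-S 1 was at 3.92 CPM, against 0.30 to 0.75 CPM in the other WT-S libraries, and the same library was highest of its group in 8 of the 8 genes. Itln1 in WT-A 4 was at 0.39 CPM, against 1.25 to 1.41 CPM in the others, and that library was lowest of its group in 6 of the 8.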

How the results depend on the processing

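Of the 6 genes, 2 were called in WT-A against WT-S, and 0 when only the groups compared were fitted, where Il4ra and Retnla had adjusted p of 0.0676 and 0.0686. That smaller fit called 675 of all genes, against 2891 in the fit of 16 libraries. In TTP-A against TTP-S, 1 was called, but 4 by DESeq2's Wald test, 4 with only the groups compared, 3 in the 14 libraries and 0 with the replicate number as a block, where Siglecf had 1.2 and an adjusted p of 0.0524. Over all genes these settings called 863, 1195, 977 and 427, against 446 in the edgeR fit of 16 libraries. DESeq2's Wald test called 1 in TTP-A against WT-A and 1 for the interaction, and the 14 libraries 1 in TTP-A against WT-A, where the edgeR fit of 16 libraries called 0. Over all genes DESeq2 called 1636 and 262, and the 14 libraries 292, where that edgeR fit called 796 between A groups and 9 for the interaction. Leaving out each library gave 1 to 3 calls in WT, 0 to 3 in TTP mice, 0 to 0 between S groups, 0 to 1 between A groups and 0 to 0 for the interaction. The 14 libraries turned Il13ra1 to 0.17 in WT-A against WT-S, -0.28 between A groups and -0.26 for the interaction, and Il1rl1 to -0.057 between A groups; the cause was not tested. Leaving out a library turned differences near 0, none called: between S groups Il4ra ran from -0.0059 to 0.18 and Il13ra1 from -0.033 to 0.0019, between A groups Il1rl1 ran from -0.033 to 0.47 and Siglecf from -0.25 to 0.11, and the interaction of Retnla ran from -0.88 to 0.21. DESeq2's size factors and the other 2 filters on low counts changed no call. Replicate numbers did not pair the samples: the deviations of same-numbered libraries correlated at -0.513 to 0.331 over 24 pairs, and the own number was the best match in 10 of 48 comparisons. Over all genes, calls ran from 675 to 4977 in WT (2891 reported), 60 to 1195 in TTP mice (446), 1 to 100 between S groups (5), 1 to 3202 between A groups (796) and 2 to 262 for the interaction (9). Rnase2a and Itln1 in TTP-S rest on 3 counts each, which limits their ratios.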

Other observations

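Lymphocyte, tuft cell and neutrophil genes gave values beside those of the report. Of 11 type 2 lymphocyte genes tested, Icos, a costimulator of T cells and innate lymphoid cells, rose in both genotypes, by 1.39 in WT (adjusted p = 0.00613, edgeR) and 1.5 in TTP mice (adjusted p = 0.0156), and the list had 3 higher and 1 lower in WT (9.8% and 8.99% of all genes) and 1 higher in TTP mice (1.55%). In the 14 libraries it had 2 higher in WT, Icos and Bcl11b, and 2 higher in TTP mice, Il1rl1, which is on this list, and Icos. Over all genes 10.4% were called in WT and 6.26% in TTP mice in those libraries. Of 9 tuft cell genes, the regulator Pou2f3 rose in WT by 0.67 (adjusted p = 0.0333, and 0.0626 in the 14 libraries), 1 of 9 called, against 9.8% of all genes. Pou2f3 differed by 0.55 in TTP mice (adjusted p = 0.181). There edgeR called 0 of the 9, against 2.9% of all genes, with 4 at an unadjusted p under 0.05. DESeq2 called 2 of the 9 there, and 863 of all genes. Of 2 neutrophil genes tested, Retnlg, a relative of Retnla, rose in WT by 3.21 (adjusted p = 0.0234) and Csf3r by 1.17 (adjusted p = 0.00791); in the 14 libraries Retnlg had an adjusted p of 0.0258 and Csf3r, at 0.89, of 0.0677. In TTP mice the values were 1.5 and 0.37 (adjusted p = 0.427 and 0.587). The differences between genotypes in these responses were not called (adjusted p = 0.515 and 0.316).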
